A study of Rattus norvegicus with 18 samples.

Results

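The genes that make, sense, export and store cholesterol were followed in rat lung across repeated exposure to a multi-walled carbon nanotube (MWCNT). The list held 36 gene symbols, and a gene was a member where its name in the deposited tables equalled the symbol exactly. The tables held 35 of them among 22081 genes, as 17 enzymes of the synthesis pathway, 4 genes of sterol sensing, 6 of efflux, 3 of the liver X receptors and the control of uptake, 2 that make oxysterols and 3 of ester storage and transfer. The expression of Apoc1 was not analysed here.

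The data are RNA-seq of lungs from 18 male F344 rats. Control rats received the vehicle, saline with Tween 80, and MWCNT rats received MWNT-7, a rigid reference nanotube, at 0.5 mg/kg by intratracheal instillation every 4 weeks from 9 weeks of age. Lungs were taken at 3 times, called Year 0.5, 1 and 2 after the length of the experiment, with 3 rats per treatment and time, so that the 6 groups are control and MWCNT at each time. All rats were of 1 inbred strain, and the RNA came from a small piece of the accessory lobe without a visible tumor, so a value describes a mixture of cell types in that piece. In such bulk tissue, fewer cells of a type and less RNA per cell cannot be told apart.

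Cholesterol is built from acetyl-CoA through mevalonate, isoprenoids, squalene and lanosterol. When the sterol content of the endoplasmic reticulum falls, SCAP carries the SREBP factors, the products of Srebf1 and Srebf2, to the Golgi for cleavage, and they switch on the synthesis genes, whereas INSIG proteins hold them back. When sterols are plentiful, oxysterols activate the liver X receptors, which switch on efflux genes such as Abca1, Abcg1 and Apoe and, through Mylip, removal of lipoprotein receptors. In the lung, type 2 alveolar cells use cholesterol as a part of surfactant, and alveolar macrophages clear used surfactant and export or store its cholesterol.

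A treatment effect is given as the log2 fold change of MWCNT over control at 1 time point, from edgeR's quasi-likelihood test on the deposited counts, and a gene passed at a false discovery rate (FDR) below 0.05 over all genes tested. The standard error (SE) of an edgeR effect is the absolute log2 fold change divided by the square root of the test's F statistic. It is therefore not the spread of the rats of that gene alone. Values per rat are CPM, counts scaled to 1000000 per rat, computed here with normalization factors over the 18 rats, and are listed for rats 1, 2 and 3 of a group in that order. Levels of different genes are compared only in TPM, the authors' value per transcript length that also sums to 1000000 per rat. Total counts per rat ranged from 13297643 to 17868851 in controls and from 14661589 to 21130757 in MWCNT rats. Abcg5, a subunit of a sterol exporter of gut and liver, had 0 to 4 counts per rat, and Apoc2, an apolipoprotein that activates lipoprotein lipase, had 0 or 1, so neither was tested and 33 members were.

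Most members were higher in MWCNT rats at every time. At Year 0.5, 22 of the 33 members rose, 3 fell and 8 did not pass, where 20.2% of all genes tested rose and 18.6% fell. At Year 1, 22 rose and 2 fell, where 21.6% of all genes rose and 19.6% fell. At Year 2, 23 rose and 3 fell, where 25.2% rose and 24% fell. In all 3 years 20 members rose and 2, Cyp27a1 and Mylip, fell, and 5 passed in no year. The share of all genes tested that passed in all 3 years was not computed, so these counts have no background beside them. The median log2 fold change of the members was 0.48, 0.57 and 0.48 in order of time, beside −0.02, 0.00 and −0.01 over all genes tested. With TPM values and limma in place of counts, the split at Year 1 was 13 higher and 3 lower. The shares of all genes called by limma were not computed, and the edgeR shares above do not apply to this split. Of the 33 members, 4, 4 and 5 rose past a log2 of 1, where 6.07%, 6.13% and 8.17% of all genes did. Past the same size 0, 0 and 1 of the 33 fell, where 3.03%, 4.09% and 8.22% of all genes did. In CPM the 3 MWCNT rats lay above the 3 control rats for 24, 23 and 26 members and below them for 3 members at each time. Such separation held for 26.2%, 28% and 30.9% of all genes tested upwards and for 25.5%, 26.9% and 28.9% downwards. The TPM values separated fewer members upwards, 20, 16 and 20, and more downwards, 5, 6 and 6, where 17%, 15% and 18.1% of all genes tested lay higher and 40.7%, 46.8% and 45.7% lower.

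**Figure D1:**
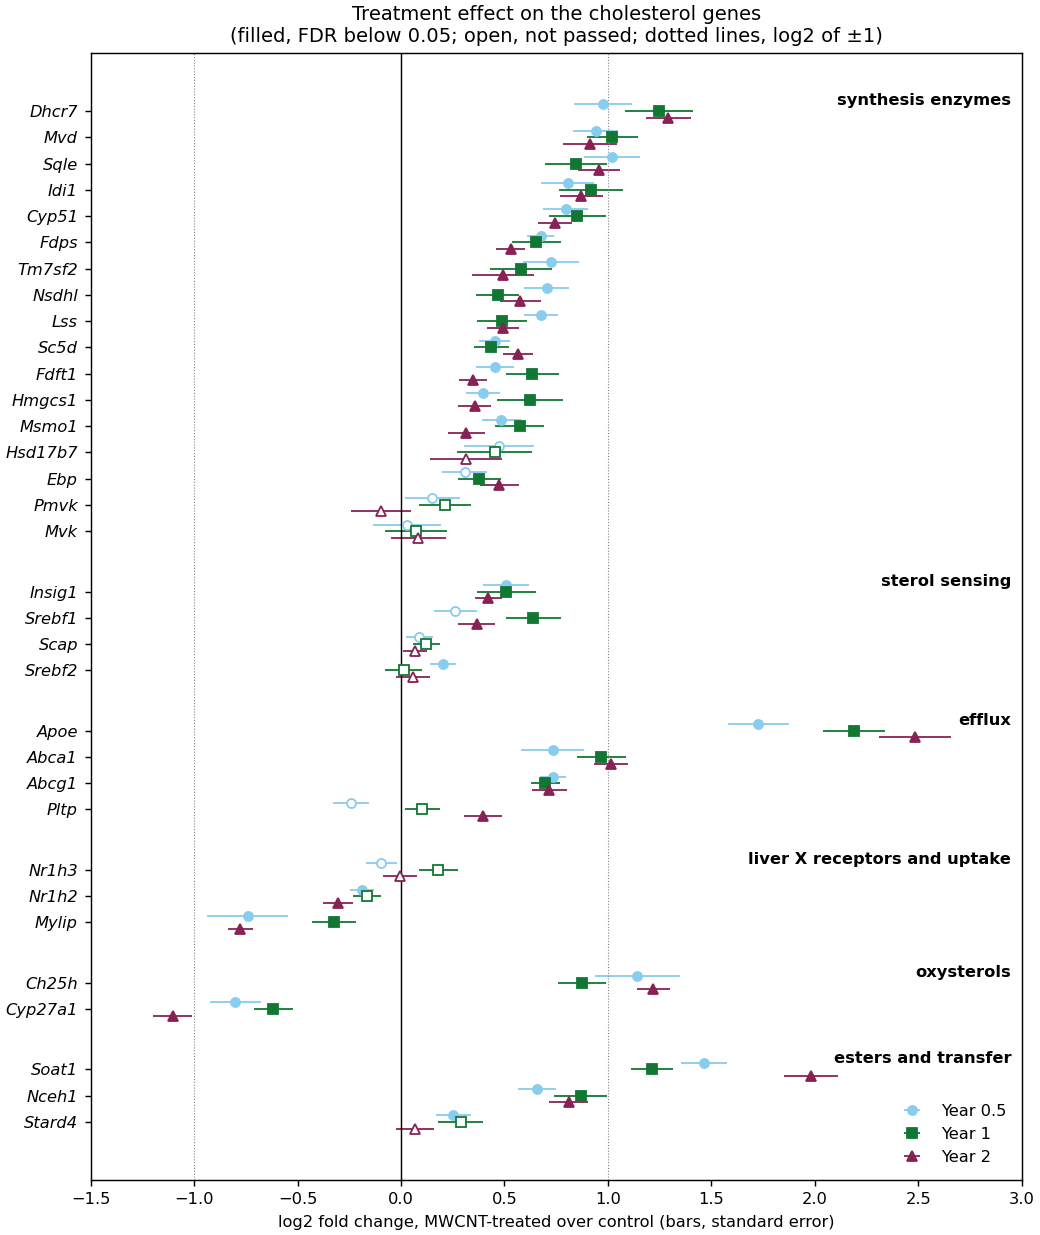
Treatment effect on the 33 tested members, as log2 fold change of MWCNT over control rats (x axis, bars are standard errors) for each gene (y axis) at the 3 times. Filled symbols passed an FDR of 0.05 and open symbols did not. Of the 17 synthesis enzymes, 13, 14 and 14 rose in order of time, where 20.2%, 21.6% and 25.2% of all genes tested did. Apoe reached the largest value at 2.48, and Cyp27a1 the lowest at −1.10.

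Markers of cell types moved alongside the members. Of 10 macrophage markers 9 rose at Year 0.5, 9 at Year 1 and 10 at Year 2, with 1, Cd163, lower at Year 1, and their summed TPM was 24230 to 30370 in control rats and 54990 to 64020 in MWCNT rats. Lyz2 made up at least 98.1% of that sum in every rat, and the other 9 markers summed to 307 to 393 TPM in control rats and 766 to 1111 in MWCNT rats. Of 8 type 2 alveolar cell markers 8, 7 and 8 rose, with a summed TPM of 28150 to 37330 against 52080 to 61940, and without Sftpc the other 7 summed to 10430 to 14140 against 19940 to 24040. Of 6 type 1 alveolar cell markers 6, 5 and 6 fell, with 4940 to 5789 against 2508 to 3765, and the 5 endothelial markers in the tables fell in each year. Markers of lymphocytes (4, 1 and 3 of 5 in order of time), heart muscle (4, 0 and 1 of 4) and airway cells (2, 2 and 1 of 3) fell, and of 5 fibroblast markers 3, 3 and 2 fell and 1, 0 and 1 rose. Adipocyte markers summed to at most 4.51 TPM in any rat. The part of these cell types in the rise of Apoe, Soat1 and the enzymes was not tested. TPM values are shares of 1000000, and with scaling by library size alone the median log2 fold change of all genes tested lay at −0.12, −0.13 and −0.18, so effects given here are relative to the trimmed mean of all genes.

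Most synthesis enzymes were higher in MWCNT rats in the count-based test. Of 17 enzymes, 13 rose at Year 0.5, 14 at Year 1 and 14 at Year 2, none fell, and 13 rose in all 3 years. Among all genes tested, 20.2%, 21.6% and 25.2% rose and 18.6%, 19.6% and 24% fell in order of time. The share of all genes that rose in all 3 years was not computed. The median log2 fold change of the 17 was 0.67, 0.58 and 0.49, beside −0.02, 0.00 and −0.01 over all genes tested. With limma on TPM, at either pseudocount, all 13 calls of Year 0.5 held, but 6 of the 14 of Year 1 and 10 of the 14 of Year 2. The 8 calls lost at Year 1 were Hmgcs1, Fdft1, Lss, Tm7sf2, Msmo1, Nsdhl, Ebp and Sc5d, and the 4 lost at Year 2 were Hmgcs1, Fdft1, Tm7sf2 and Msmo1, which scaling by library size alone also lost. The median was then 0.34 at Year 1 and 0.28 at Year 2 with TPM + 0.1, and 0.32 at Year 2 with library size alone. The 3 that passed in no year were Mvk, the mevalonate kinase, Pmvk, the phosphomevalonate kinase, and Hsd17b7, a sterol ketone reductase. Mvk had log2 fold changes between 0.03 and 0.08, and Pmvk between −0.10 and 0.21. Hsd17b7 was at 0.47, 0.45 and 0.32, with FDR of 0.0545, 0.0751 and 0.163. In CPM the 3 MWCNT rats lay above the 3 control rats for 15, 14 and 16 of the 17 enzymes. Such separation upwards held for 26.2%, 28% and 30.9% of all genes tested. In TPM it held for 13, 10 and 11 enzymes, where it held for 17%, 15% and 18.1% of all genes. In TPM 1 enzyme lay lower at Year 2, where 45.7% of all genes did. Leaving out 1 rat kept the median between 0.61 and 0.67 at Year 0.5, between 0.46 and 0.68 at Year 1 and between 0.47 and 0.54 at Year 2.

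Dhcr7, which carries out the last reduction to cholesterol, had the largest change of the enzymes at Year 1 and Year 2. Its CPM in control rats was 13.6, 9.15 and 10.9 at Year 0.5, 12.4, 8.42 and 9.53 at Year 1 and 8.74, 10.1 and 8.81 at Year 2. The MWCNT rats had 22.6, 21.8 and 22.1, then 28.1, 21.7 and 21.7, then 22.9, 22.8 and 22.4. The lowest MWCNT rat was above the highest control rat of any year, so the groups never overlapped. The log2 fold change was 0.98 ± 0.14 (SE, n = 3 and 3), 1.25 ± 0.16 and 1.29 ± 0.11, with edgeR FDR of 0.000742, 0.000495 and 1.81e-05.

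Mvd, the decarboxylase that ends the mevalonate steps, was about as steady. In control rats Mvd was at 9.80, 12.1 and 11.0 CPM at Year 0.5, 10.03, 10.3 and 8.62 at Year 1 and 11.8, 12.0 and 9.79 at Year 2. Values in MWCNT rats were 22.1, 20.9 and 20.0 CPM, then 21.7, 18.6 and 18.1, then 22.4, 18.7 and 22.6. Every MWCNT rat was above every control rat over the 3 years. The log2 fold change was 0.94 ± 0.11, 1.02 ± 0.12 and 0.91 ± 0.13, with FDR of 0.000284, 0.000312 and 0.000395.

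Sqle, the squalene epoxidase, was higher in MWCNT rats at each time. Its CPM in control rats was 32.5, 22.8 and 30.8 at Year 0.5, 33.3, 28.3 and 22.4 at Year 1 and 22.2, 18.3 and 22.1 at Year 2. MWCNT rats stood at 63.8, 59.7 and 51.4, then 57.8, 45.1 and 46.7, then 43.3, 38.0 and 40.7. The groups did not overlap at any time, and the log2 fold change was 1.02 ± 0.13, 0.85 ± 0.15 and 0.96 ± 0.10, with FDR of 0.000526, 0.00237 and 7.12e-05.

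Idi1, the isopentenyl isomerase, and Cyp51, the lanosterol demethylase, followed these enzymes, with log2 fold changes of 0.80, 0.92 and 0.87 and of 0.80, 0.85 and 0.74. Fdps, the farnesyl diphosphate synthase, was at 0.67, 0.65 and 0.53, and Hmgcs1, the HMG-CoA synthase at the head of the pathway, at 0.40, 0.62 and 0.36, all passed. Lss, Tm7sf2, Nsdhl, Sc5d, Msmo1 and Fdft1 rose by 0.32 to 0.73 on the log2 scale. Ebp, the sterol isomerase, passed at Year 1 with 0.38 and at Year 2 with 0.48, and at Year 0.5 it was at 0.31 with an FDR of 0.052. Ebp passed at Year 0.5 without control rat 3 or MWCNT rat 3. The changes were spread over early, middle and late steps. At Year 1, Hmgcs1 did not pass without control rat 2 or 3 (range without each rat 0.46 to 0.79), Tm7sf2 without either of these or MWCNT rat 1 (0.45 to 0.66), Lss without control rat 3 (0.38 to 0.59) and Ebp without control rat 3 or MWCNT rat 2 (0.32 to 0.43), whereas Hsd17b7 passed without MWCNT rat 2. At Year 2, Tm7sf2 did not pass without control rat 1 or MWCNT rat 3 (0.36 to 0.57), nor Msmo1 without control rat 2 or MWCNT rat 1 or 2 (0.27 to 0.41). In TPM, Fdps, Msmo1 and Cyp51 were the most abundant enzymes of the Year 0.5 controls, at 59.8 ± 3.95, 48.5 ± 5.37 and 45.2 ± 6.20 (SD, n = 3). The last pair differed by less than its spread. Hsd17b7 was the least abundant, at 3.82 ± 0.69 TPM.

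**Figure D2:**
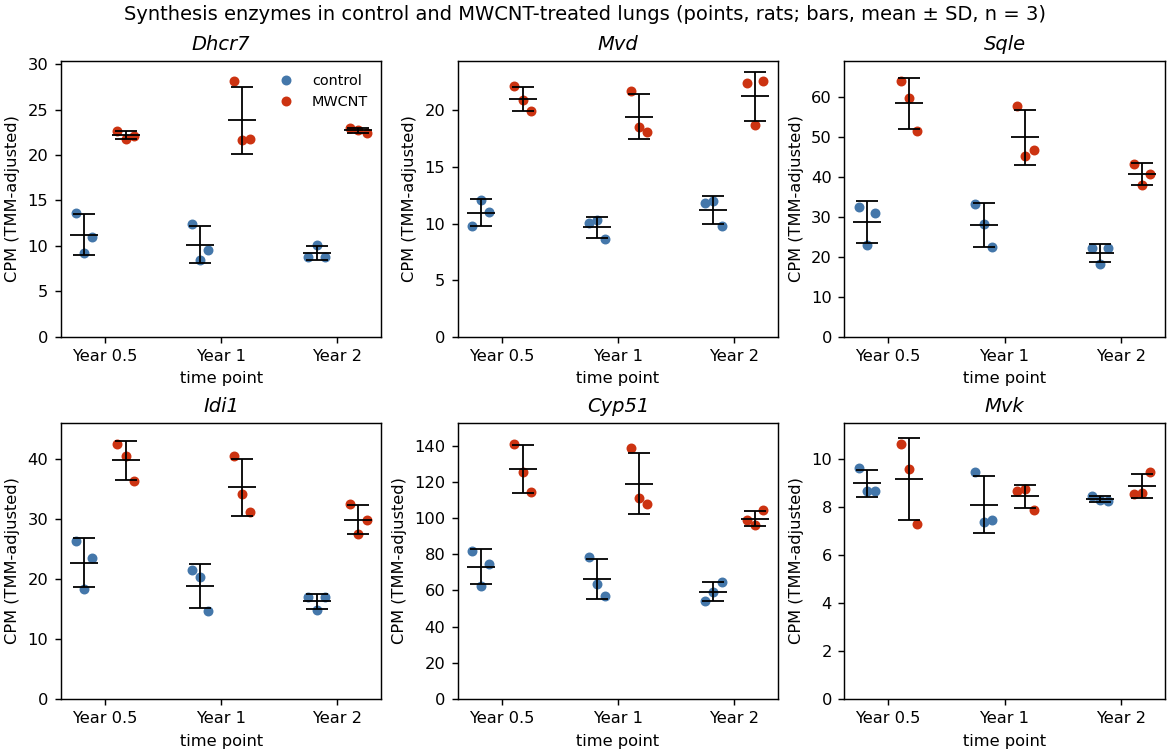
CPM by rat (y axis) in control and MWCNT lungs at 3 time points (x axis) for 5 enzymes that rose and for Mvk, which did not pass. Points are rats and bars are the mean ± SD of 3 rats. Dhcr7 in MWCNT rats lies between 21.7 and 28.1 CPM, all above the control rats, whereas the Mvk ranges overlap at Year 0.5 and Year 1.

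The highest value of a group often came from the same rat for many enzymes. MWCNT rat 1 had the highest CPM of its group for 13 of the 17 enzymes at Year 0.5 and for 13 of 17 at Year 1. Control rat 1 of Year 1 was the highest for 13 of 17 and control rat 1 of Year 0.5 for 11 of 17. At Year 2 the highest rat differed by enzyme, with 6, 5 and 6 enzymes for control rats 1, 2 and 3 and 6, 3 and 8 for MWCNT rats 1, 2 and 3. A rat's number is only a name, and the 17 values of 1 rat come from 1 library. The share of all genes tested that was highest in each rat was not computed. Whether the pattern is particular to the enzymes was therefore not tested.

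Promoters of 4 enzymes that rose in each year are shown to give their sequence context. Windows of 300 bases, from 250 before to 50 after the start site, came from RefSeq on the GRCr8 build, a later assembly than the one of the count tables, and 31 of the 36 symbols matched, Apoc1 among them for its sequence only. The windows of Mvd, Idi1 and Nsdhl are given with CCAAT boxes in capitals (CCAAT on either strand, so ATTGG is also marked), and that of Dhcr7, which holds no CCAAT, with Sp1 boxes in capitals (GGGCGG on either strand).
Mvd (chr19:67414925-67415224, minus strand): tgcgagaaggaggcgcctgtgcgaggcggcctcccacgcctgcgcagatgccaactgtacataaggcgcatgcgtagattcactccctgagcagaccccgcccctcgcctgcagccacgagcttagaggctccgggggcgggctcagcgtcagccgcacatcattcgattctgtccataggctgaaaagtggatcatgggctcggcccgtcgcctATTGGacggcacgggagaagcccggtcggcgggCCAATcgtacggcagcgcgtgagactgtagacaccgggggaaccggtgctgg
Idi1 (chr17:66547475-66547774, minus strand): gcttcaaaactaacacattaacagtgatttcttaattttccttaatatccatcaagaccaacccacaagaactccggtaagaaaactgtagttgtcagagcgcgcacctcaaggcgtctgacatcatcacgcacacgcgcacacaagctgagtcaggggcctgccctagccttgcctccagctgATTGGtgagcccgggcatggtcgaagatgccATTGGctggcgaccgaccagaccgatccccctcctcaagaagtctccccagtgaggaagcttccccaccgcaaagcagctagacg
Nsdhl (chrX:155817110-155817409, plus strand): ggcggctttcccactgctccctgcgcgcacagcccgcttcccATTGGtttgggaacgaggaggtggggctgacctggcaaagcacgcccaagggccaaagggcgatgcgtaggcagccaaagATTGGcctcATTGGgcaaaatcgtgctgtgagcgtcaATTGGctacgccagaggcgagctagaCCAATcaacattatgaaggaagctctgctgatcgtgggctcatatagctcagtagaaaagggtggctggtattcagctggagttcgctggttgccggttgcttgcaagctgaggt
Dhcr7 (chr1:208444184-208444483, plus strand): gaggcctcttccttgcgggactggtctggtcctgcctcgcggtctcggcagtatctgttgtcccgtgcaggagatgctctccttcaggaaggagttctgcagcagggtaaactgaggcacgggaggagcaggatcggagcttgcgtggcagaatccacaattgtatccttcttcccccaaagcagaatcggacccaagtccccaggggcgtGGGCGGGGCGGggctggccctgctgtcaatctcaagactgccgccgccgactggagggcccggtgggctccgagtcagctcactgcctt

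The Mvd window holds 2 CCAAT boxes, Idi1 also 2 and Nsdhl 5. Among the 14 synthesis enzymes with a window, 12 (85.7%) hold a CCAAT box and 12 hold an Sp1 box, against 37.7% and 34.9% of 27457 windows. Mvk with 5 CCAAT boxes and Hsd17b7 with 3 passed in no year, and Cyp51 and Dhcr7, which rose in each year, have none. CCAAT boxes bind the factor NF-Y, a known partner of SREBP at sterol genes. Of the 6 efflux symbols with a window, which include Apoc1 but not Abcg1, 1 (Abcg5) holds a CCAAT box and 2 (Abca1 and Apoc1) an Sp1 box. The sterol regulatory element, AT followed by CACNCCAC, was in 0 of the 31 member windows and in 0.251% of all windows, its core CACNCCAC alone in 2 (Insig1 and Ebp) and in 5.7%, and the liver X receptor element, AGGTCA repeated after any 4 bases, in 0 and in 0.00364%. The core is contained in the longer element, both strands were searched, and a match here is a description of letters and not a bound site.

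Among the sterol sensors, Insig1 rose at each time, Srebf1 at Year 1 and Year 2, Srebf2 at Year 0.5 and Scap at none. Insig1, whose product holds SCAP in the endoplasmic reticulum and which is itself an SREBP target, had log2 fold changes of 0.51 ± 0.11, 0.51 ± 0.14 and 0.42 ± 0.07, and at Year 1 it did not pass without control rat 2 or 3 or MWCNT rat 1 (0.41 to 0.69). Srebf2, the factor most tied to synthesis genes, was at 0.20, 0.01 and 0.06, and passed at Year 0.5 with an FDR of 0.0333 that 9 of 15 alternative analyses did not keep, among them those without control rat 1 or 2 or MWCNT rat 1 (0.16 to 0.24). Scap, the escort of both factors, was at 0.09, 0.12 and 0.07 and passed in no year.

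Srebf1, the factor most tied to fatty acid genes, passed at Year 1 and Year 2. Its CPM in control rats was 154, 136 and 119 at Year 0.5, 145, 124 and 101 at Year 1 and 149, 146 and 121 at Year 2. In treated lungs the CPM was 170.1, 173 and 147, then 215, 171 and 187, then 180.0, 172 and 188. The groups overlapped at Year 0.5 through control rat 1 and MWCNT rat 3 and separated later. The log2 fold change was 0.26 ± 0.10 at Year 0.5 (FDR 0.0711), 0.64 ± 0.13 at Year 1 (FDR 0.00507) and 0.37 ± 0.09 at Year 2 (FDR 0.00792). The Year 0.5 value passed without control rat 1 (0.36, FDR 0.0332) or MWCNT rat 3 (0.35, FDR 0.0355), and the Year 2 call was lost with scaling by library size alone (0.19, FDR 0.0847) and with TPM values (0.15).

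The efflux genes were higher too, led by Apoe. Of the 4 tested, 3 rose at Year 0.5, 3 at Year 1 and 4 at Year 2, where 20.2%, 21.6% and 25.2% of all genes tested rose. The median log2 fold change of the 4 was 0.73, 0.83 and 0.86, beside −0.02, 0.00 and −0.01 over all genes tested. Apoe, Abca1 and Abcg1 rose in all 3 years, and Pltp at Year 2 only among the 3 tests.

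Apoe (Rnor_6.0, chr1:80612895-80617057) encodes the apolipoprotein that carries cholesterol out of macrophages, and it was the most abundant member, at 717 ± 52.3 TPM in Year 0.5 controls. Its CPM in control rats was 535, 587 and 501 at Year 0.5, 665, 534 and 549 at Year 1 and 1042, 840.3 and 653 at Year 2. The treated rats were at 1915, 2088 and 1373, then 2186, 3140.0 and 2596, then 5259, 4910.3 and 4083. The groups were far apart at each time, and the fold change was 3.31, 4.56 and 5.60, or log2 of 1.73 ± 0.15, 2.19 ± 0.15 and 2.48 ± 0.17, with FDR of 5.12e-05, 1.35e-05 and 6.07e-06. Both treatments were higher at Year 2 than at Year 0.5, by 0.64 ± 0.18 on the log2 scale in control rats (FDR 0.0386) and by 1.41 ± 0.18 in MWCNT rats (FDR 0.000107). The difference between these 2 changes was 0.76 ± 0.25 and did not pass (FDR 0.159).

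Abca1, the exporter that loads cholesterol onto lipid-poor apolipoproteins, was next. In control rats it was at 131, 135 and 87.6 CPM at Year 0.5, 124, 96.2 and 98.0 at Year 1 and 129, 146 and 123 at Year 2. The MWCNT rats had 206, 207 and 174 CPM, then 230.0, 184 and 204, then 284, 260.3 and 261. No MWCNT rat overlapped a control rat, and the log2 fold change was 0.73 ± 0.15, 0.97 ± 0.12 and 1.01 ± 0.08, with FDR of 0.00509, 0.000336 and 1.50e-05. Abcg1, which exports cholesterol to mature lipoproteins, had an almost level effect of 0.74 ± 0.06, 0.70 ± 0.07 and 0.72 ± 0.09. Its control rats lay between 242 and 286 CPM and its MWCNT rats between 363 and 448.

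Pltp, the phospholipid transfer protein, was the one member whose treatment effect differed between Year 2 and Year 0.5 by the test. In control rats it was at 435, 438 and 355 CPM at Year 0.5, 389, 404 and 385 at Year 1 and 359, 351 and 302 at Year 2. Values in MWCNT rats were 356, 349 and 333 CPM, then 381, 458 and 419, then 480.3, 432 and 426. At Year 0.5 the MWCNT rats reached up to the level of control rat 3 and no further, and at Year 2 all 3 were higher than the controls. The log2 fold change was −0.24 ± 0.09 (FDR 0.0527), 0.10 ± 0.09 (FDR 0.358) and 0.40 ± 0.09 (FDR 0.00589). The Year 2 effect exceeded the Year 0.5 effect by 0.65 ± 0.13 (edgeR interaction, FDR 0.0214), where 0.856% of all genes had a higher and 0.451% a lower effect at Year 2. Leaving out control rat 1 or 2 or MWCNT rat 3 of Year 0.5, or MWCNT rat 1 of Year 2, left 0.59 to 0.60 with FDR of 0.0507, 0.0512, 0.092 and 0.0686. The Year 0.5 value passed as lower in 8 of 15 alternatives, which were both other scalings, DESeq2, both limma fits on TPM, the model of 18 rats, the replicate block and the fit without control rat 3 (−0.34, FDR 0.00548), and the Year 2 value did not with TPM (0.18, FDR 0.0723).

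**Figure D3:**
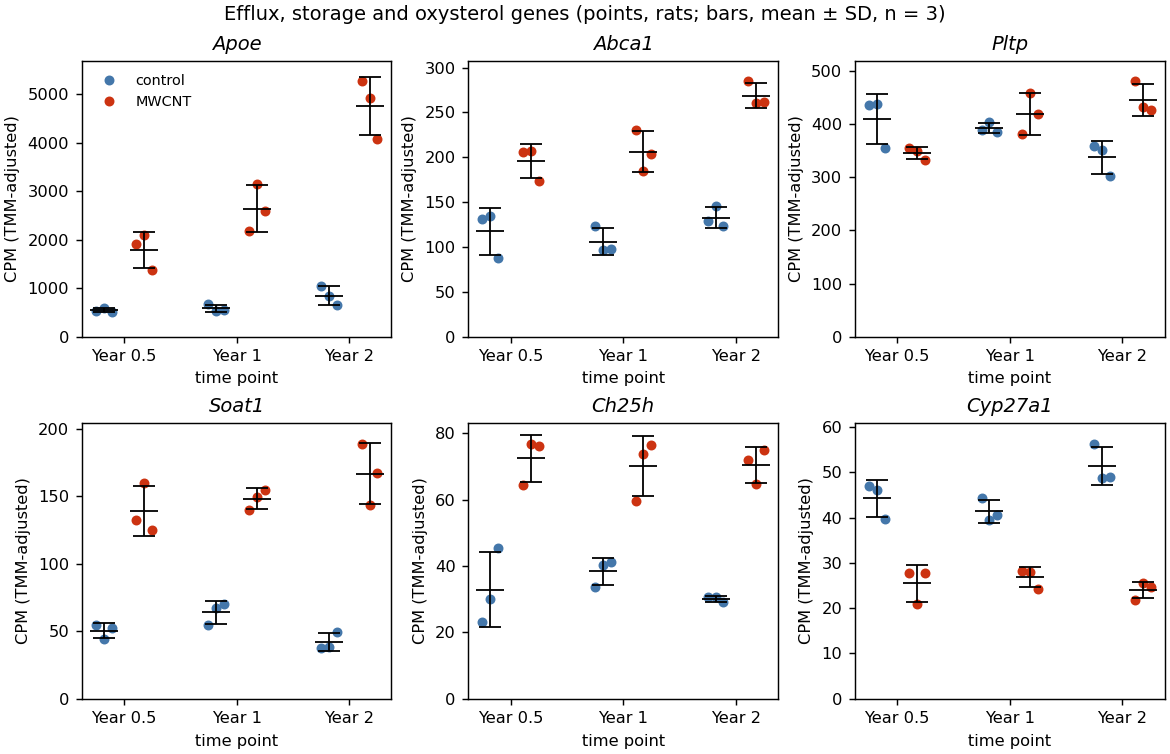
CPM by rat (y axis) in control and MWCNT lungs at 3 time points (x axis) for 3 efflux genes, the ester-forming Soat1 and the oxysterol enzymes Ch25h and Cyp27a1. Points are rats and bars are the mean ± SD of 3 rats. Apoe reaches 4083 to 5259 CPM in MWCNT rats of Year 2, and Cyp27a1 is lower in MWCNT rats at each time. The Pltp ranges overlap at Year 0.5 (edgeR FDR 0.0527), and at Year 2 its MWCNT rats lie above the controls.

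The 2 genes of oxysterol synthesis went opposite ways. Ch25h, the cholesterol 25-hydroxylase of activated macrophages, was at 23.3, 30.0 and 45.4 CPM in control rats of Year 0.5, 33.6, 40.2 and 41.3 at Year 1 and 30.6, 30.6 and 29.1 at Year 2. MWCNT rats stood at 64.3, 76.9 and 76.1 CPM, then 59.7, 73.9 and 76.6, then 71.8, 64.6 and 75.0. It rose at each time without overlap, by log2 of 1.14 ± 0.20, 0.87 ± 0.12 and 1.22 ± 0.08, with FDR of 0.00246, 0.000551 and 4.53e-06.

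Cyp27a1, the mitochondrial sterol 27-hydroxylase, was at 46.9, 46.2 and 39.6 CPM in control rats of Year 0.5, 44.2, 39.4 and 40.6 at Year 1 and 56.3, 48.8 and 49.0 at Year 2. In treated lungs it was at 27.8, 20.8 and 27.7 CPM, then 28.2, 27.9 and 24.3, then 21.9, 25.5 and 24.7. Every MWCNT rat was below every control rat. Its level fell by 0.80, 0.62 and 1.10 on the log2 scale, with standard errors of 0.12, 0.09 and 0.09 and FDR of 0.00111, 0.00104 and 1.99e-05. It was the 1 member to fall past a log2 of 1, at Year 2.

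The ester enzymes rose at each time. Soat1, the enzyme that esterifies free cholesterol, was at 54.7, 44.2 and 52.0 CPM in control rats of Year 0.5, 54.5, 67.3 and 70.4 at Year 1 and 37.9, 38.5 and 49.4 at Year 2. The treated rats were at 132, 159.6 and 125 CPM, then 139.7, 149 and 155, then 189, 143 and 167. The groups stayed apart, and the fold change was 2.76, 2.32 and 3.95, or log2 of 1.47 ± 0.11, 1.21 ± 0.10 and 1.98 ± 0.13, with FDR of 2.94e-05, 4.16e-05 and 4.47e-06. The Year 2 effect exceeded that of Year 1 by 0.78 ± 0.18, with an FDR of 0.0571, and that of Year 0.5 by 0.52 ± 0.18, with an FDR of 0.193. Nceh1, which hydrolyses cholesterol esters, rose as well, by 0.66 ± 0.09, 0.87 ± 0.13 and 0.81 ± 0.09. Stard4, a carrier of free sterol between membranes, was at 0.25, 0.29 and 0.07, and its Year 0.5 call (FDR 0.0415) was lost in 10 of 15 alternatives, among them those without control rat 2 or 3 or MWCNT rat 1 or 2 (0.20 to 0.32). At Year 1 Stard4 passed without control rat 1.

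The receptors and the uptake gene did not rise. Nr1h3, the liver X receptor alpha of macrophages, had log2 fold changes of −0.09, 0.18 and −0.01 and passed in no year. Without control rat 1 the Year 1 value passed as higher, but it turned negative in both limma fits on TPM (down to −0.052). Both of these fits called Nr1h3 lower at Year 0.5 (down to −0.237) and at Year 2 (down to −0.219). Nr1h2, liver X receptor beta, fell by 0.19 at Year 0.5 (FDR 0.0313) and by 0.31 at Year 2 (FDR 0.00651) on the log2 scale, and at Year 1 it was at −0.16 (FDR 0.0856). The Year 0.5 call of Nr1h2 was lost without control rat 1 or 2 or without any 1 of the 3 MWCNT rats. Nr1h2 was nevertheless more abundant than Nr1h3, at 158 ± 3.90 against 73.4 ± 4.35 TPM in Year 0.5 controls.

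Mylip, whose product marks lipoprotein receptors for breakdown and which is itself a liver X receptor target, fell at each time. In control rats it was at 100.1, 105 and 56.7 CPM at Year 0.5, 93.9, 74.6 and 76.7 at Year 1 and 101, 102 and 98.5 at Year 2. The MWCNT rats had 51.2, 50.5 and 55.2 CPM, then 71.1, 61.3 and 62.5, then 59.3, 56.8 and 60.7. Control rat 3 of Year 0.5 lay near the MWCNT rats, and the other control rats of that year were well above them. The log2 fold change was −0.74 ± 0.20 (FDR 0.0166), −0.32 ± 0.11 (FDR 0.0361) and −0.78 ± 0.06 (FDR 1.27e-05). At Year 0.5 the FDR was 0.0699 without control rat 1, 0.0571 without control rat 2 and 0.0582 without MWCNT rat 2. At Year 1 it was 0.0999 without control rat 1, 0.0576 without control rat 3, 0.0819 without MWCNT rat 2 and 0.0948 without MWCNT rat 3.

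The mean level of the synthesis arm was lower at Year 2 than at Year 0.5 in both treatments, and that of the efflux arm was higher in MWCNT rats. For each rat, the log2 CPM of the tested genes of an arm was averaged after subtracting the mean of the Year 0.5 controls, as a description without a test. The synthesis arm stood at 0 ± 0.11, −0.10 ± 0.15 and −0.16 ± 0.03 (SD, n = 3) in control rats and at 0.59 ± 0.07, 0.51 ± 0.15 and 0.39 ± 0.04 in MWCNT rats. The efflux arm stood at 0 ± 0.16, 0.01 ± 0.10 and 0.12 ± 0.14 in control rats and at 0.74 ± 0.13, 0.99 ± 0.06 and 1.28 ± 0.10 in MWCNT rats. In MWCNT rats the rats of Year 0.5 and Year 2 did not overlap in either arm. Control rats of Year 2, at −0.15, −0.19 and −0.14, also lay below those of Year 0.5, at 0.08, −0.12 and 0.04, in the synthesis arm. In TPM the synthesis arm of MWCNT rats went from 0.45 ± 0.06 at Year 0.5 to 0.16 ± 0.05 at Year 2, and the control rats of the 2 times then overlapped. The efflux mean covers 4 genes, and the 3 without Apoe, a set chosen after the values were seen, stood at 0.42 ± 0.07, 0.56 ± 0.01 and 0.67 ± 0.10 in MWCNT rats and between −0.05 and 0 in controls.

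**Figure D4:**
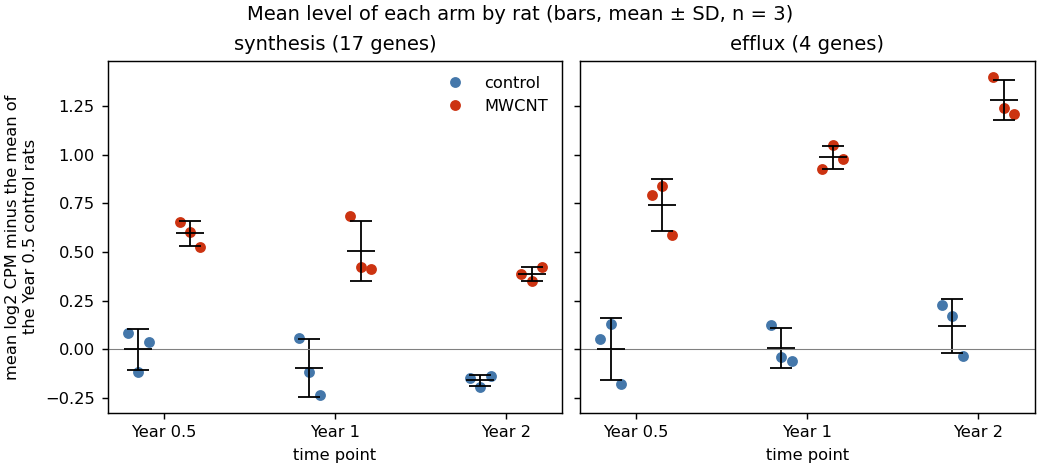
Mean log2 CPM of the 17 synthesis genes (left) and the 4 tested efflux genes (right) minus the mean of the Year 0.5 controls (y axis) by rat and time point (x axis). Points are rats and bars are the mean ± SD of 3 rats. In MWCNT rats the synthesis mean goes from 0.59 to 0.39 and the efflux mean from 0.74 to 1.28, and in control rats the synthesis mean goes from 0 to −0.16.

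Gene by gene, 8 members differed between Year 2 and Year 0.5 in MWCNT rats, all of them enzymes or efflux genes. Hmgcs1, Fdps, Fdft1, Sqle and Sc5d were lower by log2 of −0.40, −0.30, −0.35, −0.52 and −0.24, where 6.87% of all genes were lower. Apoe, Abca1 and Pltp were higher by 1.41, 0.46 and 0.37, where 6.65% were. The number rests on all 3 rats per group, as it came to 2 or 3 without any 1 of the 6 rats. In control rats 3 members differed, where 2.65% of all genes were higher and 4% lower: Apoe (0.64) and Nr1h2 (0.22) were higher and Sc5d (−0.36) was lower. That number came to 0 without control rat 1 of Year 0.5 and to 1 without control rat 1 or 2 of Year 2. Both contrasts compare different rats of different ages, and the rats of Year 2 had also received more instillations. Age and the number of instillations cannot be told apart here. The treatment effect itself differed between Year 2 and Year 0.5 for Pltp alone among the 33 members. No member passed for Year 1 against Year 0.5 or Year 2 against Year 1 in edgeR. Of all genes, 0% passed in either direction for the first, and 0.317% higher and 0.162% lower for the second. At an unadjusted edgeR p under 0.05 there were 2 and 3 members, and the share of all genes under it was not computed. A change of the synthesis effect with time was thus not shown.

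Other genes near the pathway were counted from a list of 30, of which the tables held 29 and 27 were tested. Arl4c was not analysed here. At Year 0.5, 12 (44.4%) rose and 4 (14.8%) fell, where 20.2% and 18.6% of all genes tested did. At Year 1, 11 (40.7%) rose and 3 (11.1%) fell, beside 21.6% and 19.6%, and at Year 2, 15 (55.6%) rose and 7 (25.9%) fell, beside 25.2% and 24%. The shares that fell rest on 4, 3 and 7 genes and were not tested against those of all genes. Of 5 tested fatty acid synthesis genes, 4 rose in each year. Fasn, the fatty acid synthase, had log2 fold changes of 1.46 ± 0.13, 0.79 ± 0.20 and 1.20 ± 0.13, Acaca, the acetyl-CoA carboxylase, 0.85, 0.45 and 0.73, and Acly and Acss2, which supply acetyl-CoA, 0.36 to 0.57. Scd, the stearoyl-CoA desaturase, was at −0.0032 and −0.49 without passing at Year 0.5 and Year 1 and fell by 1.16 at Year 2 (FDR 0.000143). Plin2, the coat protein of lipid droplets, rose by 0.66 ± 0.07, 0.89 ± 0.08 and 1.17 ± 0.08, and its effect was larger at Year 2 than at Year 0.5 by 0.51 ± 0.11 (FDR 0.029). Cav1, the caveola protein of endothelium and type 1 alveolar cells, fell by 1.06, 1.13 and 1.77 on the log2 scale.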

How the data were processed

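RNA was measured in 18 rat lungs. The authors extracted total RNA, prepared libraries with an NEB kit and mapped and counted the reads in CLC Genomics Workbench. The submitters' notes give the rat genome build under the names Rnor_6.0 and rn6. The annotation release, the use of strand and the handling of reads that match several places are not given in the sources used here, so enzymes with processed copies in rodent genomes, such as Fdps, carry that uncertainty. The deposited tables hold raw counts and the authors' TPM per gene and rat, and columns of the authors' own comparisons (fold changes, p-values), which were not used. Counts were analysed with edgeR 4.0.16 in R 4.3.3 (TMM, filterByExpr at its defaults of 10 counts per gene and 15 in total, quasi-likelihood test, Benjamini-Hochberg adjustment over all genes), with 6 rats per time point, and with 1 model of 18 rats for contrasts between times. DESeq2 1.42.0 and limma 3.58.1, on log2(TPM + 1) and log2(TPM + 0.1) of genes with a mean TPM of at least 1, were alternatives, with 2 other scalings, 2 other filters, a replicate block and each rat left out.

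The members, gene lists, motifs and tests were chosen with earlier results of these data known. Values by rat were to be TPM, and CPM with TMM factors replaced them after the data were seen, because TPM had shifted down for most genes in MWCNT rats. The counts of separated genes and the arm levels were recomputed in TPM, also after the data were seen. Values by rat are listed for members past an absolute log2 fold change of 1, members with an interaction, and the largest change of each role. Each label gives 1 rat per sample, and depth ranged from 13297643 to 21130757 counts. The replicate numbers did not pair rats: same-numbered rats of different groups had a mean correlation of deviations of 0.007. Python 3.11.15 read the tables. The fits were tested on simulated data with planted absolute log2 changes of at least 1 and the same spread setting for every gene. Smaller changes, as most members had, were not simulated.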

Additional observations from a re-analysis of the deposited data

Results flagged for a closer look

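The treatment effect on Pltp differed between Year 2 and Year 0.5, by 0.65 on the log2 scale in edgeR's interaction test over 18 rats (SE 0.13, FDR 0.0214). Pltp in MWCNT rats was at 333 to 356 CPM at Year 0.5, where control rats were at 355 to 438, and at 426 to 480.3 CPM at Year 2, where control rats were at 302 to 359. The difference passed in DESeq2, limma, both other scalings and both other filters, and it was lost without 4 of the 12 rats of those 2 times.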

How the results depend on the processing

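Of the members that passed, 21 of 25 at Year 0.5, 14 of 24 at Year 1 and 20 of 26 at Year 2 did so under every alternative run, and none of these 75 calls changed sign. Without each rat in turn the median log2 fold change ranged over 0.605 to 0.674, 0.456 to 0.679 and 0.467 to 0.544 for synthesis and over 0.643 to 0.806, 0.785 to 0.908 and 0.812 to 0.916 for efflux. The number of members that rose ranged over 20 to 24, 17 to 24 and 22 to 23, of those that fell over 1 to 4, 1 to 2 and 3 to 3, that differed with time over 0 to 4 in control rats and 2 to 3 in MWCNT rats, and with an interaction over 0 to 1. With limma on TPM + 0.1 and TPM + 1, the synthesis median was 0.532 and 0.519, 0.336 and 0.330, and 0.277 and 0.268, the efflux median was 0.597 and 0.584 at Year 1 and 0.647 and 0.635 at Year 2, 5 members fell at Year 0.5 and 13 rose at Year 1 in both, and Pltp at Year 1 turned to −0.137 in both. With library size alone, efflux was at 0.699 and 0.692 at Year 1 and Year 2, synthesis at 0.323 at Year 2, and Pltp at Year 1 at −0.0323. Upper-quartile scaling gave 0.439 for synthesis at Year 2. For members that differed with time in control rats, DESeq2 gave 6 and a fit of only those 6 rats gave 1. With the replicate block, Pltp (−0.238, FDR 0.0451) and Srebf1 (0.267, FDR 0.0228) passed at Year 0.5, and 22, 23 and 23 members rose. The shares of all genes that passed were computed for the main edgeR fits only, so the counts under alternatives have no background beside them. The causes of these shifts were not tested. With 3 rats per group, effects such as those of Srebf2 and Stard4 are near the limit of what could be called.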
